A study of Mus musculus with 6 samples.

Results

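The nuclear genes of the mitochondrial respiratory chain and ATP synthase were examined in tumour epithelial cells of mouse skin papillomas with and without Sox2. Genes were taken by annotated symbol, as those starting with Ndufa, Ndufb, Ndufc, Ndufs, Ndufv, Uqcr, Cox4, Cox5, Cox6, Cox7, Cox8 or Atp5, together with Sdha, Sdhb, Sdhc, Sdhd and Cyc1. This gave 91 genes of the 18193 named by a probe set with exactly 1 gene. Of these, 81 encode subunits, 34 of complex I, 4 of complex II, 9 of complex III, 17 of complex IV and 17 of ATP synthase. Ndufa4 was placed in complex IV, where its product is now known to reside. The other 10 are assembly factors and relatives that share a prefix (Ndufaf1 to Ndufaf8, Cox7a2l and Ndufa4l2). Ndufa11, Ndufs6, Ndufa11b, Ndufs6b, Ndufb4b, Ndufb4c, Ndufab1-ps and Ndufs5-ps were reached only by probe sets that list several genes and were not used here. Genes entered the test if they read above the 40th percentile of the array (4.90 to 4.94 on the log2 scale) on 3 or more of 6 arrays, which 88 of the 91 did. Cox7a1, Cox7b2 and Ndufb4 stayed below it. Ndufb4 read 3.71 to 4.19 on its only single-gene probe set, which does not show whether the gene is expressed. Cox7b was not analysed here.

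The respiratory chain passes electrons from NADH (complex I) and succinate (complex II) through ubiquinone to complex III, cytochrome c and complex IV, which reduces oxygen. Complexes I, III and IV pump protons across the inner mitochondrial membrane, and ATP synthase uses the return flow to make ATP. Most subunits are encoded in the nucleus and the remainder in mitochondrial DNA. In skin, mitochondrial respiration is known for its part in keratinocyte differentiation.

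Tumour cells came from K14CREER:SOX2fl/fl mice (Sox2cKO, 3 arrays), where tamoxifen activates a Cre recombinase driven by the keratin 14 promoter of basal keratinocytes, so that floxed Sox2 is deleted in those cells and their descendants. They were set against cells of control mice (CTRL, 3 arrays), whose alleles the labels do not spell out. All papillomas were benign and chemically induced, all mice had tamoxifen for 1 week, and ages are not given. Living Epcam+ alpha6 integrin+ cells negative for CD45, CD31 and CD140a were sorted and profiled on Affymetrix genome-wide mouse arrays, and the design text speaks of 3 biological experiments.

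Sox2 read 4.07, 4.63 and 3.23 in Sox2cKO arrays against 7.19, 8.31 and 8.18 in CTRL arrays, a difference of -3.92 ± 0.41 (standard error). The groups did not overlap, yet the adjusted p in limma was 0.316, and no gene of the array passed. The sort markers Epcam (10.57 to 11.24 in Sox2cKO, 11.07 to 11.43 in CTRL) and Itga6 (12.07 to 12.45 and 12.12 to 12.25) were high on every array. Background, read from the TrpnX bacterial control, lay at 3.34 to 3.41. CTRL replicates 2 and 3 had a female pattern of Xist and Eif2s3y and the other 4 arrays a male one. Markers of fibroblasts and pericytes, which the sort should have removed, had higher values in Sox2cKO in 11 of 11 tested genes. Of all genes tested, 49.4% had lower values in Sox2cKO. In limma 0 of the 11 passed the adjusted test and 7 had an unadjusted p under 0.05, against 2.68% of all genes. The mean over the 12 listed was 7.86, 8.05 and 9.29 in Sox2cKO arrays and 7.60, 7.58 and 6.77 in CTRL arrays. In such bulk samples fewer cells of a type and less RNA per cell cannot be told apart.

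No respiratory chain gene passed the test between Sox2cKO and CTRL cells, a test that the deleted Sox2 did not pass either. Of the 88 tested genes 0 passed an adjusted p of 0.05 in limma (lowest 0.999), against 0% of all 13222 genes tested. At an unadjusted p under 0.05 there were 0 of 88, against 2.68% of all genes. Log2 differences, Sox2cKO minus CTRL, ran from -0.29 (Ndufs4) to 0.32 (Ndufv1), which is 1.22-fold lower to 1.25-fold higher. The median difference of the 78 tested subunits was -0.044, and that of all genes was 0.0027.

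The measurements of these genes were tight. Their median SD within a group was 0.114 on the log2 scale, against 0.192 for all genes. The comparison was not matched for signal. Only 14 of the 88 genes had a mean under 9, whereas array medians over all probe sets were 5.42 to 5.46. For 74 of the 88 genes (84.1%) the 95% interval of the difference lay within 0.5 on either side of 0, against 54.5% of all genes. All 9 tested genes of complex III and 16 of 17 of ATP synthase were bounded in this way. The widest interval was that of Ndufa4l2, from -0.99 to 1.19.

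**Figure D1:**
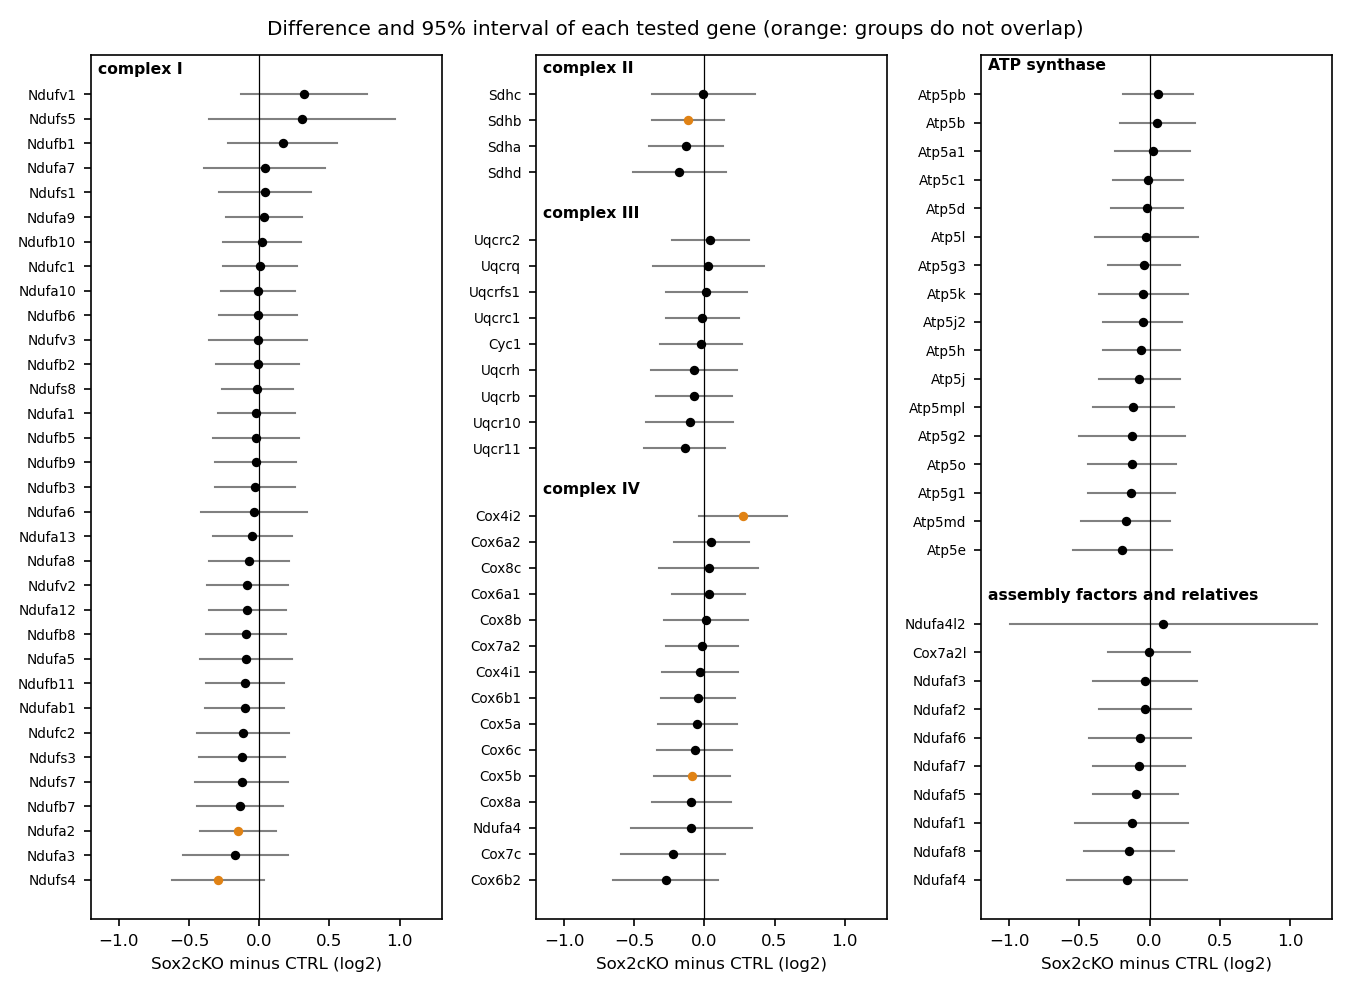
Log2 difference, Sox2cKO minus CTRL (x axis), of each of the 88 tested genes by complex, with the 95% interval from limma as a bar. All intervals cross 0, and the 5 genes whose groups do not overlap (Ndufs4, Ndufa2, Sdhb, Cox5b and Cox4i2) are in orange.

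More of the small differences were below 0 than among all genes, and this share depended on the arrays compared. Of the 78 subunits 59 (75.6%) were below 0, against 49.4% of all genes. In CTRL replicate 2 the median deviation of the subunits from each gene's mean over the 6 arrays was 0.13, against -0.051, 0.034 and -0.049 in Sox2cKO arrays and 0.023 and -0.057 in the other CTRL arrays. CTRL replicate 2 was the highest of the 6 arrays for 46 subunits (59.0%), against 23.5% of all genes. Without CTRL replicate 2, 53.8% of subunits and 48.1% of all genes were below 0, and the median of the subunits was -0.0045. Without Sox2cKO replicate 3 the share was 61.5% and without CTRL replicate 1 it was 65.4%, while without CTRL replicate 3 it reached 83.3%. With a covariate for the Xist pattern, which sets the Sox2cKO arrays against CTRL replicate 1 alone, it was 80.8%, against 52.7% of all genes. The lowest array was a Sox2cKO one for 19, 5 and 18 subunits by replicate and a CTRL one for 4, 4 and 28, so the low values lay in both groups.

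Other values also varied between arrays, some of them with CTRL replicate 2 at an extreme. The poly-A spike-in transcripts added to the RNA had a median of 8.62, 7.73 and 8.47 in Sox2cKO arrays and 6.49, 9.54 and 7.34 in CTRL arrays. Over the sebocyte markers (6 tested of 8 listed, 5 with lower values in Sox2cKO) the mean deviation was -0.43, 0.19 and -0.77 in Sox2cKO arrays and -0.10, 1.10 and 0.011 in CTRL arrays. The spike-in signal and the sebocyte markers were both highest in CTRL replicate 2. Markers of suprabasal keratinocytes, the differentiating layers, were above 0 in 8 of 8 tested genes of 10 listed (0 passed the adjusted test in limma), with a mean deviation of 0.41, 0.60 and -0.52 in Sox2cKO arrays and 0.42, -0.57 and -0.35 in CTRL arrays, lowest in CTRL replicate 2. Langerhans cell markers were below 0 in 4 of 5 (0 passed the adjusted test), with a median of -1.09. These 4, Cd74, H2-Ab1, H2-Aa and H2-Eb1, had an unadjusted p under 0.05 in limma, against 2.68% of all genes. Cd207 differed by 0.014 and read 4.81 to 5.18, close to the 40th percentile. The mean deviation of the 5 markers was -0.66, 0.091 and -0.85 in Sox2cKO arrays and 0.80, 0.087 and 0.53 in CTRL arrays. The part of any of these in the subunit values was not tested.

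**Figure D2:**
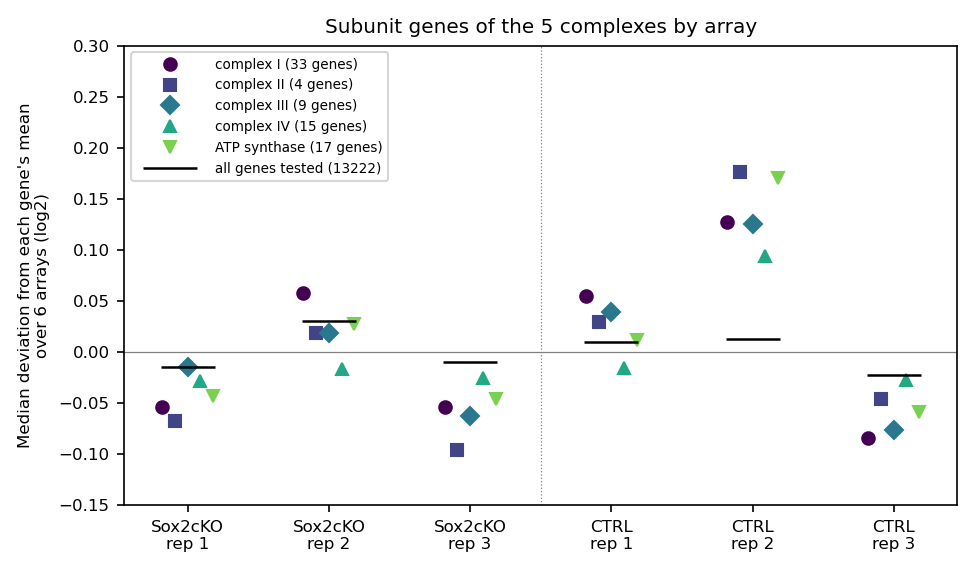
Median over the tested genes of each complex of the deviation from the gene's mean over 6 arrays (log2), by array, with the same median over all 13222 genes as a black line. The 5 complexes lie together at 0.094 to 0.18 in CTRL replicate 2 and within 0.1 of 0 in the other 5 arrays.

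Complex I, the entry point for NADH, had 33 tested subunits, of which 25 were below 0, with a median of -0.031. Ndufs4, an accessory subunit next to the NADH-oxidising module whose loss causes complex I deficiency, read 9.61, 9.97 and 9.75 in Sox2cKO arrays and 10.03, 10.19 and 9.99 in CTRL arrays. All 3 Sox2cKO values lay below all 3 CTRL values, with a difference of -0.29 ± 0.14 (standard error), a 95% interval of -0.62 to 0.033 and an adjusted p of 0.999. Its other tested probe sets differed by -0.20 and -0.17 with overlapping groups. Ndufa2, an accessory subunit of the same module, read 10.62, 10.76 and 10.73 in Sox2cKO arrays and 10.80, 10.96 and 10.80 in CTRL arrays, a difference of -0.15 without overlap. Over all 5 complexes, 4 of 78 subunits did not overlap on the lower side (5.13%, against 3.12% of all genes) and 1 on the higher side (against 2.73%). Counted on 1 probe set per gene, these shares were near the background.

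The subunits that carry the electron path of complex I had differences on both sides of 0. Ndufv1 binds NADH and flavin, and the others hold iron-sulfur clusters or the ubiquinone site. The differences were 0.32 for Ndufv1, -0.084 for Ndufv2, 0.038 for Ndufs1, -0.12 for Ndufs3, -0.13 for Ndufs7 and -0.014 for Ndufs8. The highest positive values after Ndufv1 were those of the accessory subunits Ndufs5 (0.30) and Ndufb1 (0.17), and the lowest after Ndufs4 was Ndufa3 (-0.17). The X-linked accessory subunit genes Ndufa1 (-0.020) and Ndufb11 (-0.10) also had overlapping groups. Every one of these intervals included 0.

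Complex II, succinate dehydrogenase, links the citric acid cycle to the chain and has no subunit from mitochondrial DNA. All 4 of its genes were below 0, with a median of -0.12, and the SD of their median within groups was 0.090. Sdhb, the iron-sulfur subunit, read 10.93, 10.93 and 10.95 in Sox2cKO arrays and 11.09, 11.11 and 10.96 in CTRL arrays. The groups did not overlap, but the nearest CTRL value, 10.96, was close to the Sox2cKO values, and the difference was -0.12 (95% interval -0.38 to 0.14). Sdhd, a membrane anchor, read 10.67, 10.97 and 10.82 in Sox2cKO arrays and 10.97, 11.18 and 10.85 in CTRL arrays. Its groups overlapped, with a difference of -0.18. The flavoprotein gene Sdha differed by -0.13 and the other anchor gene Sdhc by -0.0082. The complex II median stayed between -0.14 and -0.091 when any 1 array was left out.

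Sdhd, Sdha and Sdhb, the complex II genes whose promoters were searched, and Ndufs5 of complex I shared a promoter feature, and were picked for display after their values were seen. Within 250 bases before the start site each held the core of the binding motif of NRF1, a transcription factor known to act on respiratory chain genes. The motif was searched as GCGCANGC on both strands (GCNTGCGC on the other), and the 2 forms can overlap one another. It was present in 22 of 71 promoters of subunit genes (31.0%) and in 9.95% of 32851 RefSeq promoters of the same length, 250 bases before to 50 after the start. Promoters were found for 66 of the 81 subunit genes. The windows below are 60 bases from RefSeq, build GRCm38.p6, written 5′ to 3′ on the strand of the gene, with the match in capitals. They show what these 4 genes have in common in sequence, and a match describes letters, not binding. The Sdhd window is chr9:50603895-50603954 (minus strand), the Sdha window chr13:74350305-74350364 (minus), the Sdhb window chr4:140961191-140961250 (plus) and the Ndufs5 window chr4:123718251-123718310 (minus), all upstream of the transcribed region.
Sdhd: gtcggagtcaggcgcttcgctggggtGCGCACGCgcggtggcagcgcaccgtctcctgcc
Sdha: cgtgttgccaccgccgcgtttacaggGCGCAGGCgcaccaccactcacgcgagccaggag
Sdhb: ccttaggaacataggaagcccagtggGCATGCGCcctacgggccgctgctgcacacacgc
Ndufs5: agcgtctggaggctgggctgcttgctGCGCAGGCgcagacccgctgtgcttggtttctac

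The first bases of the matches lie 79, 98, 54 and 98 bases before the start site, in the order printed, and Sdha has 2 further matches nearer the start. The same search found the YY1 core AAGATGGC in 12.7% of subunit promoters and 2.75% of all, the ETS core bound by GABP (CCGGAAGT) in 7.04% and 3.89%, and the ERR half-site TCAAGGTCA in 2.82% and 0.423%. By complex, the NRF1 core was in 3 of 3 promoters of complex II (Sdhc was not searched), 8 of 18 of ATP synthase, 8 of 33 of complex I, 2 of 5 of complex III and 1 of 12 of complex IV. Sdhd, Sdha and Sdhb had lower and Ndufs5 higher values in Sox2cKO. These 4 were picked with their values known from 21 subunit genes with the motif, so their signs say nothing about the others.

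Complex III, which hands electrons from ubiquinol to cytochrome c, ran from -0.14 to 0.043 over 9 genes, with a median of -0.024 that lay between -0.093 and 0.0098 when 1 array was left out (0.0098 without Sox2cKO replicate 3). The catalytic subunits were Cyc1, the cytochrome c1 gene, at -0.024 and Uqcrfs1, the Rieske iron-sulfur protein gene, at 0.014. Cyc1 read 11.71, 11.73 and 11.48 in Sox2cKO arrays and 11.61, 11.76 and 11.62 in CTRL arrays, fully interleaved. The core proteins Uqcrc1 and Uqcrc2 were at -0.017 and 0.043. The lowest value was that of the small subunit gene Uqcr11 (-0.14, 95% interval -0.43 to 0.15), followed by Uqcr10 (-0.11) and Uqcrb (-0.076), and the highest after Uqcrc2 was Uqcrq (0.029).

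Complex IV has tissue isoforms, and the values furthest from 0 in this complex belonged to isoforms at low signal. Its 15 tested genes had a median of -0.044, with 10 below 0, and the median lay between -0.071 and near 0 when 1 array was left out. The widely expressed isoforms had differences near 0, with Cox4i1 at -0.032, Cox6a1 at 0.031, Cox6b1 at -0.044, Cox7a2 at -0.016 and Cox8a at -0.093. The other Cox6b1 probe set was at -0.14, lower without overlap. Cox4i1 read 12.60, 12.66 and 12.54 in Sox2cKO arrays and 12.66, 12.71 and 12.52 in CTRL arrays, so the groups overlapped almost fully. Cox5b, which was lower without overlap (12.66, 12.68 and 12.66 in Sox2cKO, 12.70, 12.89 and 12.69 in CTRL), differed by -0.090, and the groups nearly touched. Ndufa4 differed by -0.093. Cox7c, at -0.22, was among the lowest values of the complex. Its probe set read only 6.09 to 6.55 in Sox2cKO and 6.46 to 6.72 in CTRL, and its other probe set did not pass the filter.

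Cox4i2, the isoform of subunit 4 found in lung and in pericytes, was the only subunit gene whose Sox2cKO values all lay above its CTRL values. It read 5.27, 5.12 and 5.45 in Sox2cKO arrays and 5.01, 4.91 and 5.11 in CTRL arrays, close to the 40th percentile. The difference was 0.28 ± 0.13 (standard error), with a 95% interval of -0.038 to 0.59 and an adjusted p of 0.999. The pericyte marker Rgs5 read 7.05, 4.33 and 8.82 in Sox2cKO arrays and 5.25, 5.87 and 4.88 in CTRL arrays. Both were highest in Sox2cKO replicate 3, where the fibroblast and pericyte markers were also highest (9.29), and the part of these cells in the Cox4i2 values was not tested. Without that array Cox4i2 differed by 0.19.

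Cox6b2, the testis isoform of subunit 6b, lay at a similarly low signal but with the opposite sign. It read 4.71, 5.03 and 5.15 in Sox2cKO arrays and 5.05, 5.29 and 5.37 in CTRL arrays, a difference of -0.27 with overlapping groups. The muscle isoform genes Cox6a2 (0.050) and Cox8b (0.010) and the testis isoform gene Cox8c (0.032) differed little. Cox7a1, of heart and muscle, read 3.85 to 4.10 in Sox2cKO and 3.99 to 4.25 in CTRL, and Cox7b2 read 3.24 to 3.46 and 3.35 to 3.39. Both were below the 40th percentile on every array. Of 12 markers of skeletal and heart muscle 6 were also below it on every array, and 6 passed the filter. Of all 18193 named genes 13222 passed it.

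**Figure D3:**
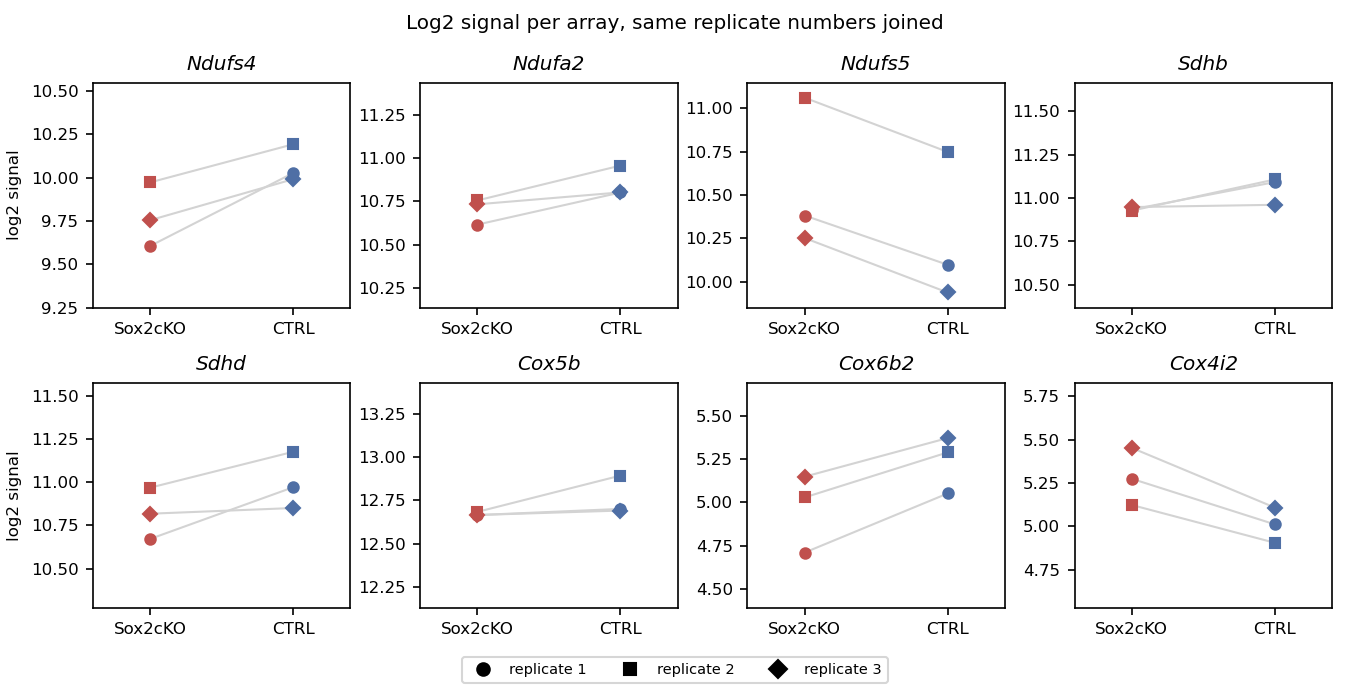
Log2 signal per array of 8 subunit genes, Sox2cKO left of CTRL, with arrays of the same replicate number joined and every panel spanning 1.3 log2 units. Ndufs5 is higher in each Sox2cKO array than in its pair by 0.28 to 0.31 although its groups overlap, and Cox4i2 is higher and Ndufs4 lower in every pair.

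ATP synthase had 17 tested genes with a median of -0.049, 14 of them below 0 and 12 highest in CTRL replicate 2. The median was -0.0048 without CTRL replicate 2 and -0.12 without CTRL replicate 3. The catalytic head genes Atp5a1, Atp5b and Atp5c1 differed by 0.022, 0.055 and -0.014, and Atp5d by -0.016. Atp5b, the catalytic beta subunit, read 12.55, 12.52 and 12.45 in Sox2cKO arrays and 12.53, 12.35 and 12.47 in CTRL arrays. Atp5e, the smallest subunit of the head, had the lowest value of the complex (11.08, 11.30 and 10.99 in Sox2cKO and 11.30, 11.52 and 11.14 in CTRL), at -0.20 with a 95% interval of -0.55 to 0.16. Atp5pb, of the peripheral stalk, had the highest (0.058). The 3 genes for the same c subunit of the membrane ring, Atp5g1, Atp5g2 and Atp5g3, differed by -0.13, -0.12 and -0.041. The small membrane subunit gene Atp5md differed by -0.17.

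The 10 genes that share a prefix but encode no subunit had a median of -0.071, with 9 below 0 and none without overlap. The complex I assembly factors ran from -0.16 (Ndufaf4) to -0.032 (Ndufaf3). Cox7a2l, which joins complexes III and IV into supercomplexes, was at -0.0027. Ndufa4l2, a hypoxia-induced relative of Ndufa4, varied more than any other tested gene here, with an SD within groups of 0.75. It read 8.10, 9.27 and 7.62 in Sox2cKO arrays and 8.54, 8.65 and 7.51 in CTRL arrays. Its difference of 0.099 ± 0.47 became -0.37 without Sox2cKO replicate 2 and -0.26 without CTRL replicate 3, so it had no settled direction.

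Arrays of the same replicate number resembled one another, and a fit with the number as a block gave 4 subunits an unadjusted p under 0.05, against 0 without it. This is 4 of 88 genes, near the 4.96% of all genes at that level, and the lowest adjusted p was 0.974 with the block. Ndufs5, an accessory subunit of complex I, read 10.38, 11.06 and 10.25 in Sox2cKO arrays and 10.10, 10.75 and 9.94 in CTRL arrays. Replicate 2 was high in both groups, and the differences within pairs were 0.28, 0.31 and 0.31 (unadjusted p = 0.0293 in limma with the block and 0.316 without it). The others were Ndufs4 (-0.42, -0.22 and -0.24 by pair, unadjusted p = 0.0426 in limma), Cox6b2 (-0.34, -0.26 and -0.22, unadjusted p = 0.0442) and Cox4i2 (0.26, 0.22 and 0.34, unadjusted p = 0.0443).

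Across pairs, 24 of 78 subunits (30.8%) were lower in Sox2cKO in all 3, against 12.7% of all genes, and 4 (5.13%) were higher in all 3, against 12.1%. The median subunit difference was -0.090 in pair 1, -0.084 in pair 2 and 0.014 in pair 3. The medians over all genes were -0.026, 0.017 and 0.0086. The subunit median was thus below 0 in pair 1 as well as in pair 2, which holds CTRL replicate 2, and not in pair 3. Only pair 1 had the male pattern in both arrays, while pairs 2 and 3 set a male Sox2cKO array against a female CTRL array.

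**Figure D4:**
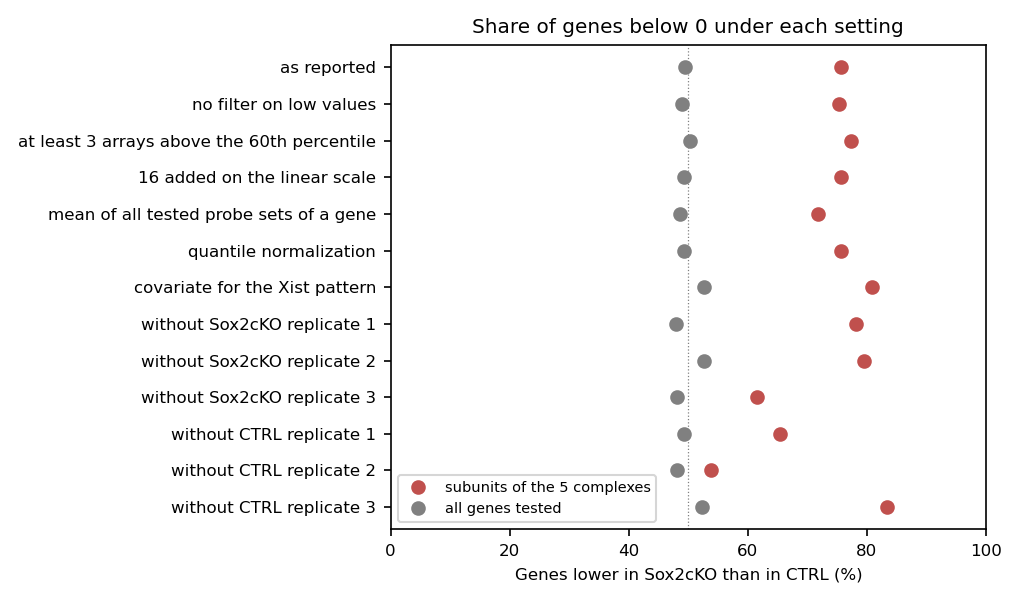
Percentage of genes with a lower mean in Sox2cKO than in CTRL (x axis) among subunits of the 5 complexes and among all genes tested, under each way of processing or with 1 array left out. Subunits lie at 53.8% without CTRL replicate 2 and between 61.5% and 83.3% otherwise, while all genes stay between 47.9% and 52.7%.

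Probe sets of 1 gene did not always give the same reading. Of 47 genes with more than 1 tested probe set, 20 had probe sets on both sides of 0, and in 6 the differences lay more than 0.3 apart. Ndufv1 was represented by probe set 1456015_x_at, which read 10.85, 11.12 and 11.13 in Sox2cKO arrays and 11.09, 10.62 and 10.44 in CTRL arrays (difference 0.32). Probe set 1415966_a_at read 10.82, 11.17 and 11.14 in Sox2cKO arrays and 11.17, 9.93 and 9.80 in CTRL arrays (0.74), and 1415967_at read 10.83 to 10.90 in Sox2cKO and 10.78 to 10.94 in CTRL (0.028). The low readings were in CTRL replicates 2 and 3, the arrays with a female pattern, and with a covariate for that pattern the difference of 1456015_x_at was -0.059. The highest difference among the subunits therefore depended on the probe set and on 2 control arrays.

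Uqcr10 behaved likewise in a single array. Probe set 1434340_at read 7.66, 8.78 and 8.63 in Sox2cKO arrays and 7.92, 8.91 and 4.87 in CTRL arrays, a difference of 1.12 with CTRL replicate 3 far below the rest. The probe set that represents the gene, 1424364_a_at, read 10.97 to 11.03 in Sox2cKO and 10.94 to 11.30 in CTRL, with a difference of -0.11. The mean over its probe sets was 0.42 higher in Sox2cKO. For Cox5b, the 4 other tested probe sets were all below 0 (-0.17 to -0.042). For Ndufa12 the tested probe sets ran from -0.22 to 0.22. Probe sets not used to represent the gene were lower without overlap for Cox6b1 (-0.14), Cox5a (-0.10), Ndufa5 (-0.14) and Ndufa12 (-0.21). So were those of Cox5b (-0.17) and, at low signal, Ndufc2 (-0.18) and Uqcrq (-0.19), 1 probe set each. The tested genes had 167 tested probe sets in all, and the share without overlap over all probe sets of the array was not computed. The share of subunits given above (5.13%, against 3.12% of all genes) counts only the probe set that represents each gene.

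**Figure D5:**
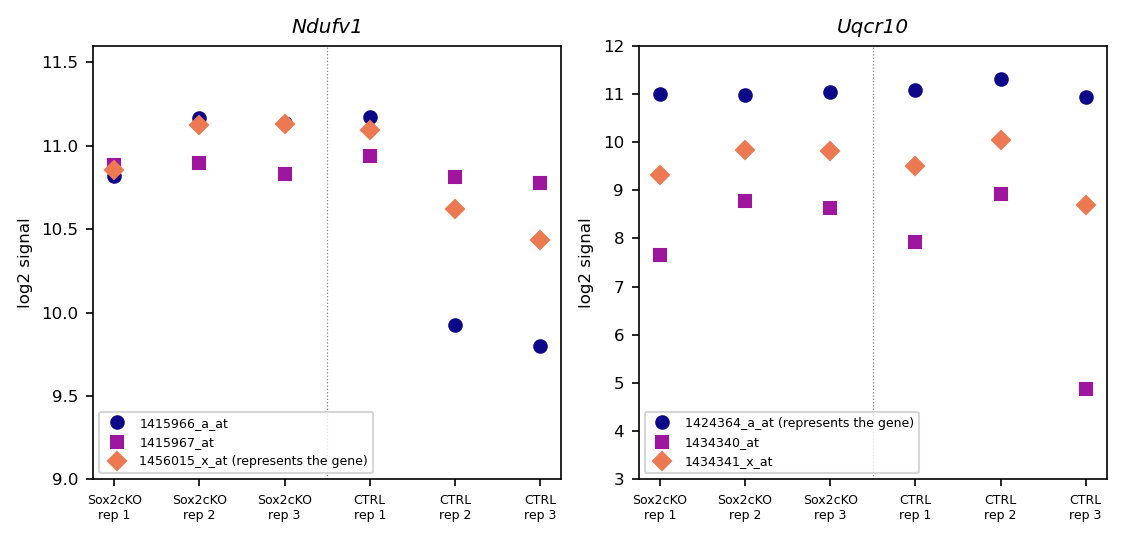
Log2 signal of each probe set of Ndufv1 (left) and Uqcr10 (right) on the 6 arrays, Sox2cKO left of CTRL. In Ndufv1, 1415966_a_at drops to 9.93 and 9.80 in CTRL replicates 2 and 3 while 1415967_at stays between 10.78 and 10.94, and in Uqcr10, 1434340_at is at 4.87 in CTRL replicate 3 alone.

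Other nuclear genes of mitochondrial respiration also gave 0 calls in each list at an adjusted p of 0.05 in limma. Of 76 genes of the mitochondrial ribosome, which translates the subunits encoded in mitochondrial DNA, 63 were below 0, with a median of -0.080. Their mean deviation was -0.13, 0.036 and -0.0077 in Sox2cKO arrays and -0.0087, 0.19 and -0.078 in CTRL arrays, again highest in CTRL replicate 2. Mrps18b was lower without overlap (-0.22), while Mrps23 (0.35) and Mrps35 (-0.21) had overlapping groups. Of 43 assembly factor genes, which include Ndufaf1 to Ndufaf8, 32 were below 0, with a median of -0.045. Coa5, a complex IV assembly factor, read 10.49, 10.60 and 10.42 in Sox2cKO arrays and 10.33, 10.24 and 10.26 in CTRL arrays, higher without overlap by 0.22. The next by unadjusted p were Cox18 (0.15) and the ATP synthase factor gene Atpaf2 (-0.17).

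Citric acid cycle genes had a median of -0.042 with 12 of 17 below 0, led by Ogdh (0.22), Idh2 (-0.21) and Suclg1 (-0.16). Electron carriers and ubiquinone synthesis genes had a median of -0.023 with 11 of 16 below 0. In that list the ubiquinone methyltransferase gene Coq5 (-0.25) and the electron transfer flavoprotein gene Etfb (-0.16) were lower without overlap, and Coq10b (0.36) overlapped. Regulators of mitochondrial transcription were evenly divided, 8 of 16 on each side, with a median of -0.0047. Among them the coactivator genes Ppargc1b (-0.39 ± 0.29, standard error) and Pprc1 (-0.15) had lower values and the methyltransferase gene Tfb1m (0.23) a higher one, all with overlap. Ppargc1b read 7.76, 8.53 and 7.84 in Sox2cKO arrays and 8.14, 8.99 and 8.16 in CTRL arrays, with replicate 2 high in both groups. Within pairs it differed by -0.38, -0.46 and -0.32, and with the block its unadjusted p in limma was 0.0134 and its adjusted p 0.884.

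Among 11 carriers, uncoupling proteins and related genes, Pdk1 had the smallest unadjusted p (0.0354 in limma, adjusted p 0.999). Pdk1 encodes a kinase that holds pyruvate back from the mitochondrion's citric acid cycle. It read 9.89, 9.62 and 10.09 in Sox2cKO arrays and 9.57, 9.50 and 8.96 in CTRL arrays, without overlap, a difference of 0.52 with CTRL replicate 3 the lowest array. Ucp3, an uncoupling protein gene, differed by 0.16 with overlap. ND5, the only gene of mitochondrial DNA identified among the named probe sets and picked out after its values were seen, read 12.25, 12.32 and 11.98 in Sox2cKO arrays and 12.24, 12.81 and 11.94 in CTRL arrays. Its difference of -0.14 ± 0.23 (standard error) came with CTRL replicate 2 again the highest array.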

How the data were processed

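Expression was measured on 6 arrays, 3 Sox2cKO and 3 CTRL. Values deposited by the authors were read as log2 from their range, 1 per probe set. R 2.14.0 is named in the submitters' processing notes. Background correction, summarising and normalization are not given in the sources used here, and array medians lay between 5.42 and 5.46. Gene names came from GEO's platform annotation (34945 with 1 gene, 932 with several, 9160 unnamed). Each gene was represented by its single-gene probe set with the highest mean over 6 arrays. Differences, Sox2cKO minus CTRL, came from lmFit and eBayes of limma 3.58.1 (R 4.3.3, two-sided, no block), with Benjamini-Hochberg adjustment over 13222 genes, and the code was tested on simulated data. Medians and shares of gene groups are descriptions without a test. The number of arrays limits the precision, and p-values measure the spread between these samples.

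Genes named are the 3 highest and 3 lowest of each complex, all without overlap between groups, tissue isoforms, the 3 of smallest p in each pathway list, and others picked after their values were seen. Members and lists were chosen with earlier results of these data known. The labels number replicates 1 to 3 in both groups. Deviations from the group mean correlated between same-numbered arrays (r = 0.206 to 0.288 over genes) more than between others (-0.333 to 0.064), so the numbers were taken as pairs. Alternatives covered the low-value filter, a replicate block, an added constant, probe set averaging, quantile normalization, eBayes settings, a Xist covariate and leaving out each array.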

Additional observations from a re-analysis of the deposited data

How the results depend on the processing

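The number of respiratory chain genes past the threshold was 0 under all 14 alternatives, and the number among all genes was 0 except with a covariate for the Xist pattern (1) and when 1 array was left out (0 to 5, with 5 without CTRL replicate 1). With the replicate block it was 0 as well, while genes at an unadjusted p under 0.05 numbered 656 with the block and 354 without it. The block changed no other call. All 6 medians (5 complexes and all subunits) stayed within 1 SD of the value reported under each alternative. This SD, of the median over arrays within groups, was 0.047 to 0.090. It was larger than every median but that of complex II, so the others could change sign within it. The replicate block and the eBayes settings leave the differences unchanged by construction. Leaving out 1 array put the median of all subunits between -0.11 and -0.0045 and that of complex I between -0.11 and near 0, and complexes III, IV and ATP synthase also came near or past 0. Of 39 named subunits and relatives, 10 changed sign with the Xist covariate, which by construction sets the Sox2cKO arrays against CTRL replicate 1 alone. With it Ndufv1 was at -0.059, Ndufa4 at 0.16, Atp5b at -0.028, Ndufb1 at -0.039 and Ndufa4l2 at -0.21, the others being Cox6b1, Cox8b, Uqcrq, Uqcrfs1 and Atp5a1. Sdha (-0.031) and Cox6a2 (0.14) moved without a change of sign. Leaving out 1 array changed the sign of 2 to 9 of the 39 (9 without CTRL replicate 2), and the mean of all probe sets that of 5. With the mean of all its tested probe sets Uqcr10 was at 0.42. With 3 arrays per group, differences of the size seen here could not be told from 0.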
